A study of Mus musculus with 4 samples.

Results

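Peaks of the m6A readers IGF2BP2 and YTHDF2 coincided at 1861 places of the mouse genome, and at these places the strength of both readers was compared. A pair was an IGF2BP2 peak and a YTHDF2 peak that overlapped by at least 1 bp. The pairs held 1818 of 7069 IGF2BP2 peaks and 1859 of 2834 YTHDF2 peaks, of 19866 peaks in the 3 lists of the series. The material was a culture of mouse bone marrow cells, labelled lin-ckit+ and LIC, grown in medium with the cytokines IL3, IL6 and SCF. RNA and protein were crosslinked with UV light, and the RNA bound to IGF2BP2, YTHDF2 or YTHDC1 was immunoprecipitated and sequenced next to 1 input library. No genotype, strain, age or treatment is given in the labels, and that the cells are leukaemia stem cells is taken from the title of the series. Each reader had 1 library, so no value has a replicate check and no test between readers was possible. The interval of a single relative ratio covers counting error only. Intervals of medians and shares cover the spread over pairs or windows taken as independent, although many pairs share a gene and 43 IGF2BP2 peaks had 2 or more partners. No interval covers the difference between replicate libraries.

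m6A is a methyl group on adenosines of RNA, placed mostly within the short sequence DRACH and read by proteins that bind the marked RNA. IGF2BP2 binds RNA through KH and RRM domains and is known for stabilising mRNAs and promoting their translation. YTHDF2 binds m6A through its YTH domain and is known for recruiting the CCR4-NOT deadenylase, which shortens the life of the mRNA. At coinciding peaks, RNA of overlapping stretches was thus recovered with proteins of opposite known effect. The immunoprecipitates were separate, so a pair does not show both proteins on the same RNA molecule. The pileups show only how much RNA was recovered with each.

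The pairs were compared by the pileup, which is the height of the read coverage at the summit of a peak. The ratio of the IGF2BP2 pileup to the YTHDF2 pileup had a median of 1.67 over all pairs (order-statistic 95% interval 1.62 to 1.73). Sequencing depth is unknown, so each ratio was divided by this median, and the quotient is called the relative ratio. A pair was said to lean to IGF2BP2 at a relative ratio of 2 or more and to YTHDF2 at 1/2 or less. The leaning pairs were thus chosen by the measured pileups, and their ratios are descriptions. By this rule 231 pairs leaned to IGF2BP2 (12.4%, exact binomial interval 10.95 to 14.0) and 250 to YTHDF2 (13.4%, interval 11.9 to 15.1). These shares are the background against which every group below is read. The relative ratio ran from 0.164 to 9.80, and its quartiles were 0.6 and 1.56. At the limits, 15 pairs sat exactly at 2 and 17 exactly at 1/2, and the nearest pairs outside had 1.985 and 0.503. Counts were small, with 360 pairs under a summed pileup of 10, and the counting interval of the relative ratio excluded 1 in 91 of the pairs that leaned to IGF2BP2 and 83 of those that leaned to YTHDF2.

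The sequences at the summits of 8 leaning pairs show the kind of site that is compared, and windows with and without a DRACH match occur on both sides. Each is 61 bases of coding sequence around the summit of the favoured reader, 5′ to 3′ on the strand of the gene, from 1 exon of the GENCODE M21 transcript (GRCm38). DRACH matches, read as A, G or T, then A or G, then AC, then A, C or T, are in capitals. The 8 shown had a window wholly within 1 coding exon, summits at most 50 bp apart and an interval that excluded 1, with at most 5 for each reader and predicted genes left out. This choice was made after the values were seen. The 5 that leaned to IGF2BP2 lie at chr8:8683890-8683950 (minus strand) in Arglu1, chr2:125587610-125587670 (minus) in Cep152, chr10:76412065-76412125 (minus) in Pcnt, chr15:76179050-76179110 (minus) in Plec and chr2:134598735-134598795 (minus) in Tmx4.
Arglu1: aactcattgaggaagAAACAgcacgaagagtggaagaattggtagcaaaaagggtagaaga
Cep152: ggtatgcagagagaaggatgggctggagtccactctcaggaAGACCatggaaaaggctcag
Pcnt: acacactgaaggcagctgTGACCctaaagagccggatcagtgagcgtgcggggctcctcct
Plec: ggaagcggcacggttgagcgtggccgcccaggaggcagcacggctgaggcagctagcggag
Tmx4: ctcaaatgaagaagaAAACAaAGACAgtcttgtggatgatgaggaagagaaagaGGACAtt

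The 3 that leaned to YTHDF2 lie at chr1:16103529-16103589 (minus) in Rpl7, chr15:78993215-78993275 (plus) in Triobp and chr8:94386649-94386709 (plus) in Herpud1.
Rpl7: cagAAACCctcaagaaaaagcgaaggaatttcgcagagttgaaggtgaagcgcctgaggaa
Triobp: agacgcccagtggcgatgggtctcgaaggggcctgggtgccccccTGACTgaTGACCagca
Herpud1: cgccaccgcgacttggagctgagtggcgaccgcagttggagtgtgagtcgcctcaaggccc

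In the IGF2BP2 list, Tmx4, a thioredoxin-related membrane protein, had the strongest of these windows, with a pileup of 51 against 12 for YTHDF2, and its sequence held 3 DRACH matches. Plec, with 39 against 8, held none. Among the YTHDF2 windows Rpl7, of the large ribosomal subunit, had 22 against 27 and held 1 match, while Herpud1 of the endoplasmic reticulum had 5 against 10 and no match. A match is a description of these letters and says nothing of whether the base was methylated.

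The strongest pairs were strong for both readers. In paired peaks the median pileup was 11 for IGF2BP2 and 6 for YTHDF2, against 5 and 3 in peaks without a partner. The highest pileup in a pair was 199 and 200. Across the 1861 pairs the pileups had a Spearman correlation of 0.716, which is a description over sites that share the same 2 libraries. The 5 pairs nearest the top of both lists with a relative ratio close to 1 lay in Ncl, Myh9, Anp32b, Hsp90ab1 and Ythdc1. Ncl, the nucleolar protein nucleolin, had pileups of 176 and 131. Ythdc1, which encodes the nuclear m6A reader, had 154 and 81 in exon 5, and its relative ratio was 1.14 (interval 0.866 to 1.51).

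**Figure D1:**
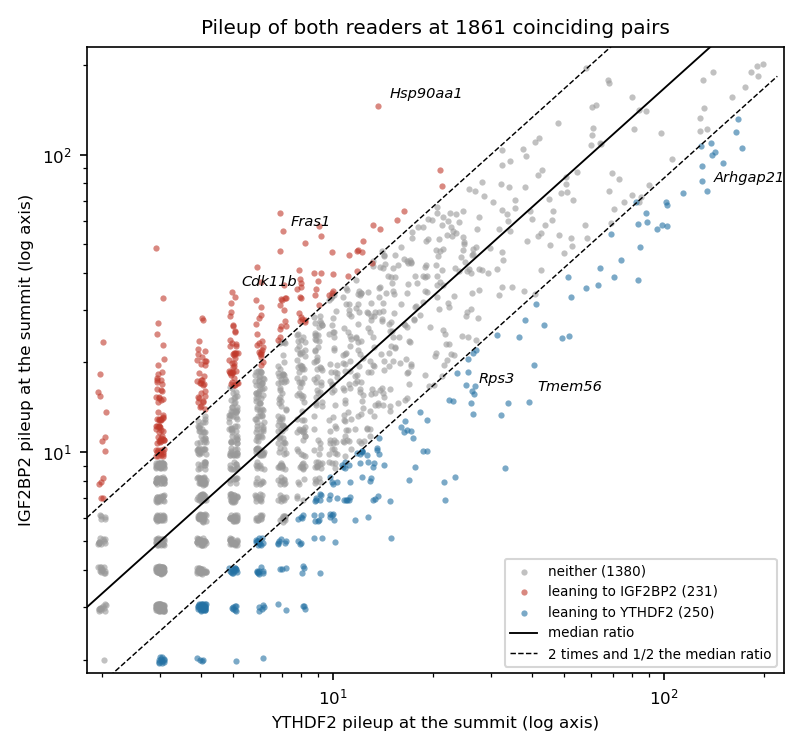
Pileup at the summit of the YTHDF2 peak (x, log axis) and of the IGF2BP2 peak (y, log axis) for the 1861 pairs, with points spread slightly to separate ties. The solid line is the median ratio of 1.67 and the dashed lines are 2 times and 1/2 of it, and 231 red and 250 blue points lie on or beyond them.

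By rank within each list, the pairs stood at a median percentile of 79.7 in the IGF2BP2 list and 58.9 in the YTHDF2 list. The rank was higher in the IGF2BP2 list for 1400 pairs and in the YTHDF2 list for 460. All 231 pairs that leaned to IGF2BP2 by ratio ranked higher in its list, and 243 of the 250 that leaned to YTHDF2 ranked higher in that list. Ranks and ratios come from the same pileups, so this follows largely from the rule and is no second check of the lean. A difference of ranks between lists of 7069 and 2834 peaks shows no change in binding, so the ratio is used below.

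The pairs with the largest lean to IGF2BP2 were often places where the summits did not coincide. By the bound of the interval nearest to 1, the 10 protein-coding genes that leaned most were Hsp90aa1, Noc2l, Hnrnpc, Fras1, Smarcc2, Gm47283, Eif3a, Gm21887, Rgl1 and Ddrgk1. In 8 of these the summits lay more than 50 bp apart. Hsp90aa1 (ENSMUSG00000021270.13, IGF2BP2 summit at 110694245 on chromosome 12), a cytosolic HSP90 chaperone, had 145 for IGF2BP2 in exon 5 against 14 for a YTHDF2 peak 315 bp away, a relative ratio of 6.21 (interval 3.59 to 11.7). The same IGF2BP2 peak overlapped a YTHDF2 peak of 61 with its summit 4 bp away, and there the relative ratio was 1.43. Noc2l, a nucleolar regulator, had 49 against 3 at 384 bp and 49 against 20 at 38 bp, which gives 9.80 and 1.47. In Hnrnpc, an RNA-binding protein of the nucleus, 65 stood against 7 at 300 bp and against 40 at 11 bp, relative ratios of 5.57 and 0.975. The chromatin remodeller subunit Smarcc2 gave 6.4 at 208 bp and 2.13 at 2 bp. Summits lay more than 50 bp apart in 26.8% of all pairs that leaned to IGF2BP2 and 16.4% of those that leaned to YTHDF2. The share was 18.3% in pairs that leaned to neither, and over all pairs it was 355 of 1861. In the pairs that leaned to IGF2BP2, the IGF2BP2 peaks had a median width of 261 bp and the YTHDF2 peaks 115 bp. Over all pairs these widths were 192 and 126 bp.

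With summits at most 50 bp apart, a condition added after the values were seen, the genes named for the lean to IGF2BP2 held mostly coding summits. Fras1 and Rgl1 were intronic, with 54 against 7 and 23 against 2. Cdk11b (ENSMUSG00000029062.14, IGF2BP2 summit at 155628809 on chromosome 4), a kinase of the cyclin-dependent family, had 34 against 5 in exon 3, with summits 5 bp apart and a relative ratio of 4.08 (interval 1.59 to 13.4). Cep152, a protein of centriole assembly, had 23 against 3 in exon 17, and Pcnt, the pericentriolar scaffold pericentrin, had 33 against 6 in exon 15. Myh9, the heavy chain of nonmuscle myosin, had 57 against 13 in exon 24, Arglu1 37 against 7 in exon 2, and Plec, the cytoskeletal linker plectin, 39 against 8 in exon 32. The share in coding sequence was close to that of all pairs, with 32 of 61 leaning pairs (52.5%) that were beyond counting error and had such summits, against 51.3% of all pairs with such summits. Without the condition it was 45 of 91, against 930 of 1861. The YTHDF2 background was 1 or more in 2 of the 91. The background is the coverage that the authors' peak caller set for the place, on the scale of the pileup.

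Of the 83 pairs that leaned to YTHDF2 beyond counting error, 55 (66.3%) were intronic or intergenic, against 20.5% of all pairs, and 20 lay in coding sequence or UTRs. The make-up was different in all 250 pairs that leaned to YTHDF2, where 44 were intronic, 53 intergenic and 90 in coding sequence. The background was 1 or more in 45 of the 83 (54.2%), against 18.4% of the 250 and 9.24% of all pairs. Such a background was also frequent in the 64 pairs whose interval excluded 1 without reaching either limit, with 38 (59.4%). The 10 protein-coding genes that leaned most were Tmem56, Arhgap21, Erp29, Rsph3b, Tmtc2, Cd44, Eif1ad, Cmss1, Peak1 and Cdk8. In 8 of them the summits were in introns, and only Erp29 and Eif1ad were in 3′ UTRs. Tmem56 (ENSMUSG00000028132.15, IGF2BP2 summit at 121249837 on chromosome 3) had 15 for IGF2BP2 against 39 for YTHDF2, a relative ratio of 0.231 (interval 0.118 to 0.428). In Arhgap21 the values were 76 and 133 with a background of 2.90. Cmss1, Peak1 and Cdk8 had 120 against 165, 103 against 141 and 102 against 139, and backgrounds of 8.615, 10.7 and 6.39. In these 3 genes the YTHDC1 peak was also high, at 147, 171 and 135. Whether reads that map to several places lie behind such intronic peaks was not tested.

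Among exonic pairs with summits at most 50 bp apart, also chosen after the values were seen, several of the leaders to YTHDF2 were genes of translation or had their summits in a 3′ UTR. Eif1ad (ENSMUSG00000024841.8, IGF2BP2 summit at 5370272 on chromosome 19) had 8 against 22 in its last exon with both summits on the same base, and a relative ratio of 0.218 (interval 0.0840 to 0.509). Eef2, the translocation factor of the ribosome, had 15 against 26 in exon 9, and a relative ratio of 0.346. Rps3 of the small ribosomal subunit had 16 against 26 in exon 5, and Fau, which encodes ribosomal protein eS30 fused to a ubiquitin-like protein, 6 against 13 in exon 2. The immediate early gene Ier2 had 15 against 23 and the actin-sequestering thymosin Tmsb4x 20 against 26, both in the 3′ UTR. The intervals of these pairs all excluded 1, as the rule that named them required.

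Annotated regions differed in their median. Coding sequence (930 pairs) had a median relative ratio of 1.09 (interval 1.05 to 1.20), with 114 pairs leaning to IGF2BP2 and 90 to YTHDF2. The 63 pairs in 5′ UTRs had 0.80 (0.70 to 0.92), with 3 and 10. Introns (260 pairs) had 0.90 (0.80 to 1.08), with 29 and 44. Intergenic pairs stood furthest off, with a median of 0.554 (0.50 to 0.60) over 121 pairs, of which 6 leaned to IGF2BP2 and 53, or 43.8%, to YTHDF2. Other exons, those of noncoding transcripts, had 0.86 over 96 pairs and 1.20 over the 67 of them with a background under 1. The 230 pairs with summits in different regions had 1.20. The 48 pairs in annotated pseudogenes had a median of 1.46, with an interval of 1.00 to 1.60 that reaches 1. Of these, 9 (18.75%, interval 8.95 to 32.6) leaned to IGF2BP2, a range that includes the 12.4% of all pairs. Only 1 (2.08%, interval 0.0527 to 11.1) leaned to YTHDF2, against 13.4% of all pairs. Reads of a pseudogene and its parent gene cannot be told apart in a peak list.

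**Figure D2:**
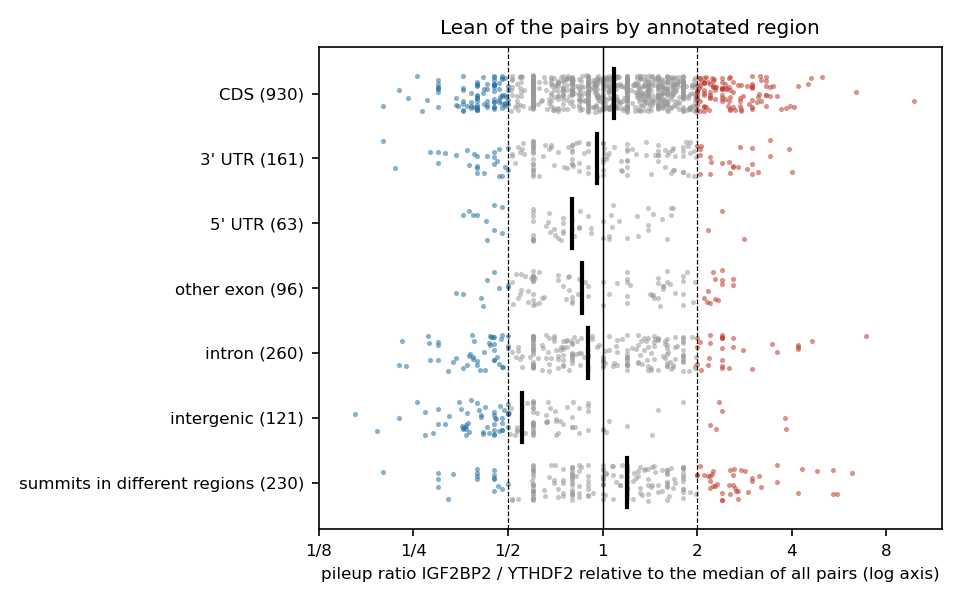
Relative ratio of every pair (x, log axis) by the annotated region of its summits (y, number of pairs in brackets), with the median as a black bar and the limits of 2 and 1/2 dashed. The intergenic bar lies at 0.554 and the CDS bar at 1.09, and every region spreads over both sides of 1 with red and blue points for pairs leaning to IGF2BP2 and YTHDF2.

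The 3′ UTR median was furthest below 1 where no annotated transcript made the summit coding. Called from any transcript, 161 pairs had a median of 0.96 (0.80 to 1.14), with 24 leaning to IGF2BP2 and 26 to YTHDF2. Where coding sequence of any annotated transcript was given precedence, 51 pairs in 49 genes were left. Their median was 0.6 (0.514 to 0.646), with 2 pairs leaning to IGF2BP2 and 18 to YTHDF2. It was the same 0.6 in the 47 pairs with a background under 1. Besides Eif1ad and Ier2 they hold Crispld1 with 8 against 17, the alanyl-tRNA synthetase gene Aars with 6 against 12, and Pgd of the pentose phosphate pathway with 8 against 13. By gene, 41 had a median below 1 and 8 above, while over all pairs 525 genes were below 1 and 514 above. The pairs that leaned to IGF2BP2 were in Kif5b, a kinesin heavy chain, with 12 against 3 and Pigk, a subunit of the GPI transamidase, with 21 against 5. Around the stop codon, the 88 pairs with an IGF2BP2 summit within 200 nt before it had a median of 1.00 with 10 pairs leaning to IGF2BP2 and 13 to YTHDF2. The 17 pairs within 200 nt after it had 0.50 with 0 and 9.

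Medians were lower at high background, and the part of background in the intronic and intergenic values was not tested beyond the following split. At a background under 1, introns had a median of 1.00 over 225 pairs, with 28 leaning each way, and intergenic pairs had 0.60 over 93. At a background of 1 or more, introns had 0.554 over 35 pairs and intergenic pairs 0.390 over 28. Coding sequence had 1.13 over 872 pairs and 0.894 over 58, but the share of its pairs that leaned to YTHDF2 was lower at high background, 2 of 58 against 88 of 872. In other exons the share was 2 of 29 against 7 of 67, while in introns it was 16 of 35 against 28 of 225. The ratio also varied with the summed pileup of the pair, from 0.75 below 10 to 1.33 between 20 and 80, and down to 0.594 in the 45 pairs of 160 or more. In that class the median pileups were 120 for IGF2BP2 and 126 for YTHDF2. Below 10 the value is partly set by the class itself, since every paired peak had a pileup of at least 2. This leaves little room for a lean to IGF2BP2, and 2 of the 360 pairs leaned so, against 71 to YTHDF2.

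**Figure D3:**
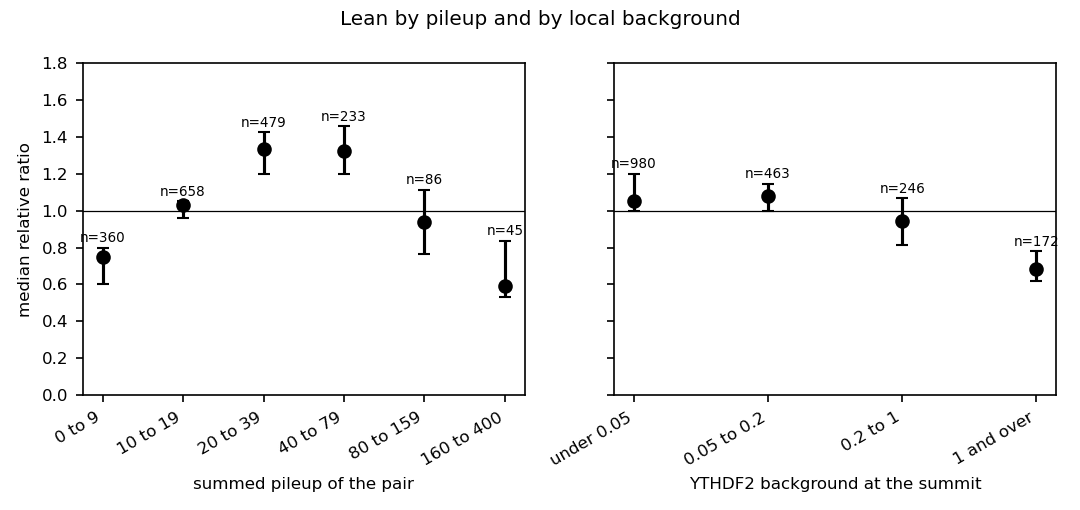
Median relative ratio (y) in classes of the summed pileup of the pair (left) and of the YTHDF2 background at the summit (right), with order-statistic 95% intervals as bars and the number of pairs above each. The median rises from 0.75 to 1.33 and falls to 0.594 on the left, and falls from 1.05 to 0.682 on the right. The lowest class on the left is limited by the smallest pileup of 2 in paired peaks.

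Ribosomal protein mRNAs were the gene list with the most even lean to YTHDF2. They are short, abundant mRNAs of the translation machinery, and 24 of the 78 genes had a pair. The 37 pairs had a median relative ratio of 0.545 (interval 0.50 to 0.675), and 22 of the 24 genes had a median below 1. Over all 998 protein-coding genes with a pair, 487 had a median below 1. None leaned to IGF2BP2, against 12.4% of all pairs, and 15 leaned to YTHDF2 (40.5%, interval 24.8 to 57.9), against 13.4%. For the pairs with summed pileups of 10 to 39 the median was 0.505 over 26 pairs of these genes and 1.12 over all 1137 pairs. Rps27a, a fusion of ubiquitin and a ribosomal protein, had the lowest value with 5 against 15, a relative ratio of 0.20. Rpl7 had 22 against 27, Rps2 35 against 41, and Rps3 9 against 18 in another pair than the one in exon 5. Rpl4 was the exception with 37 against 17 in exon 10, a relative ratio of 1.31, and in Rps6 the values were 10 against 6 and 10 against 5. Only 6 of the 15 leaning pairs were beyond counting error by themselves, in 4 genes. Many processed pseudogenes share the sequence of these genes, so the counts of any single member are uncertain.

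Other genes of translation and of the cytoskeleton were mixed. The 52 pairs in translation factors had a median of 1.00 with 4 leaning to IGF2BP2 and 9 to YTHDF2. Eef1a1, the elongation factor that delivers tRNA, had all 5 of its pairs between 0.45 and 0.80, the strongest for YTHDF2 with 12 against 16. Eef2 differed within the gene, since its other pairs had 19 against 9 and 19 against 5 with summits 434 and 82 bp apart. Eif3a, the large subunit of initiation factor eIF3, had 10 pairs between 0.931 and 4.30. The pair at 4.30 had 43 against 6 with summits 103 bp apart, and a pair of higher pileup, 107 against 63, leaned to neither. The 70 pairs in cytoskeletal genes had 0.961, with 8 and 11 leaning. Within them the myosin gene Myh9 stood above 1 while the actin Actb, with 15 against 16, had 0.562.

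Genes of mitosis, chromatin and splicing had list medians above 1, with many genes on the other side. DNA replication and mitosis genes had 30 pairs in 14 genes, a median of 1.48 (1.09 to 1.97), and 9 pairs leaning to IGF2BP2 against 1 to YTHDF2. This rests on genes with several pairs, since 7 genes had a median above 1 and 7 below. All 6 pairs of Cdk11b were above 1, from 1.27 to 4.08. Incenp, of the chromosomal passenger complex, had 35 against 5 at summits 185 bp apart and 44 against 17 at 44 bp. Smc1a, of the cohesin ring, had 5 pairs from 1.2 to 4, while Smc3 had 2 against 3 and the licensing factor Mcm6 6 against 7.

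Chromatin regulators held 73 pairs in 28 genes with a median of 1.20 (1.00 to 1.41), 15 leaning to IGF2BP2 and 5 to YTHDF2, and 17 genes above 1 against 9 below. The nucleosome remodeller Baz1a had 105 against 37, the SWI/SNF ATPase Smarca4 54 against 23, and Chd2 had 6 pairs from 1.40 to 3.00. Splicing factors had a median of 1.22 (0.956 to 1.54) over 42 pairs, an interval that includes 1. With 6 pairs (14.3%) leaning to IGF2BP2 and 3 to YTHDF2 they were near the 12.4% of all pairs, and Luc7l2 had 57 against 18. In the nucleolar proteins and acidic chaperones 10 of 11 genes had a median above 1 and none below. Over all 998 protein-coding genes with a pair the counts were 476 and 487. Of the pairs of this list, however, 0 leaned to YTHDF2 and only 2 to IGF2BP2. Lists below 1 included RNA helicases and mRNA decay with 0.771 (0.60 to 1.00) over 21 pairs, of which 1 leaned to each reader. The m6A writers, erasers and readers had 0.765 (0.60 to 1.51) over 10, with 0 leaning to IGF2BP2 and 1 to YTHDF2. Ubiquitin and proteasome genes had 0.467 (0.30 to 1.76) over 7, with 0 and 4, and 2 genes, Rnf220 and Arih1, were above 1. All these intervals reach or include 1. Glycolysis had 0.84 over 7 pairs, and stem and leukaemia transcription factors 0.96 over 20. The ubiquitin ligase gene Huwe1 had a median of 0.467 over 3 pairs, of which 2 leaned to YTHDF2 and 1 was at 1.58. The 32 pairs of hnRNP genes had 0.940 and the 20 of chaperone genes 0.942. The lists were chosen with earlier results of these data known, and no list was tested.

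**Figure D4:**
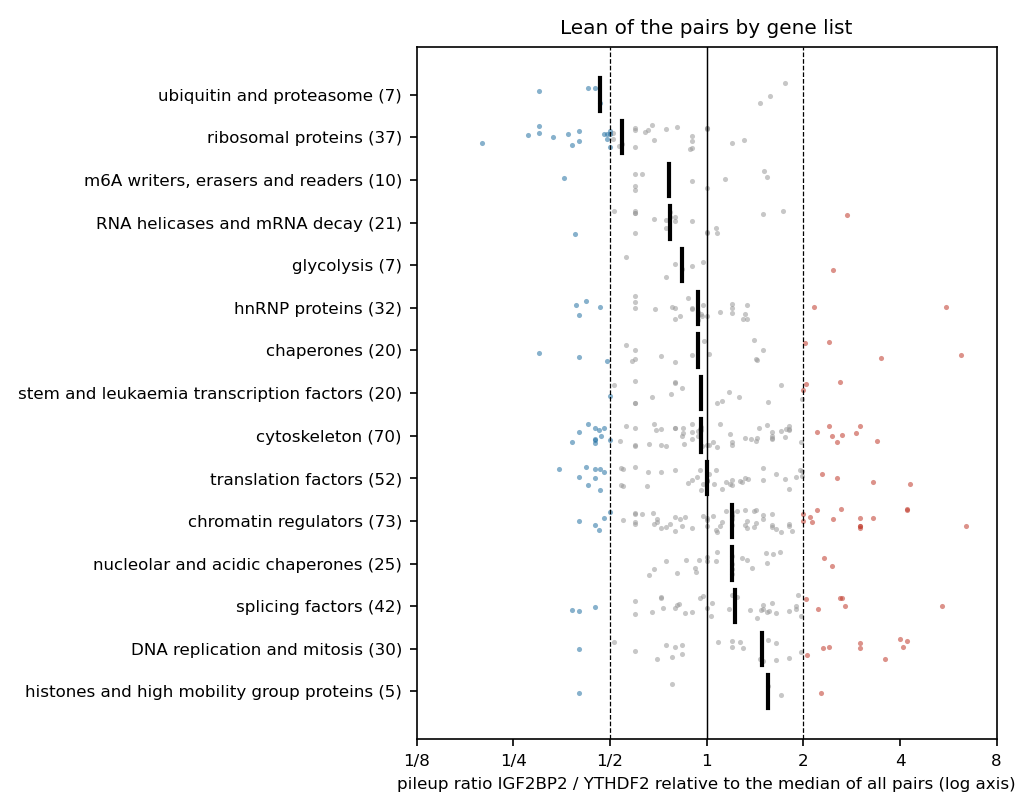
Relative ratio of every pair (x, log axis) in the gene lists with at least 5 pairs (y, number of pairs in brackets), ordered by their median, which is the black bar. The 37 ribosomal protein pairs show 15 blue points (leaning to YTHDF2) and no red point, while DNA replication and mitosis shows 9 red points (leaning to IGF2BP2) and 1 blue.

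Genes with many pairs were mostly above 1. Of 998 protein-coding genes with a pair, 41 had 5 or more, and 37 of these had a median above 1. Over all 998 genes, 476 had a median above 1 and 487 below. The 4 below were Eef1a1 with 0.55, the dynein heavy chain gene Dync1h1 with 0.75, Hnrnpul2 with 0.938 and Plec with 0.99. Pcnt was the highest, with a median of 2.53 over 10 pairs of which 6 leaned to IGF2BP2. Its relative ratios ran from 1.03 to 4.20, with 14 against 2 at the highest, and a pair with 53 against 22 leaned to neither. Cep128, another centriole gene, had 10 pairs with a median of 1.72 and 4 leaning to IGF2BP2. Myh9 had the most pairs, 18, with a median of 1.30 and relative ratios from 0.696 in exon 2 (29 against 25) to 2.63 in exon 24. Nin, the centrosomal protein ninein, had 14 pairs with a median of 1.38. Coding length was read from the longest complete transcript of a gene, whose coding part can be short, as in Ankrd11 with 291 nt. Coding pairs at 4000 nt or more had a median of 1.20 (1.089 to 1.20) over 280 pairs. Those below 1000 nt had 1.00 (0.90 to 1.145) over 106, and 1.05 over 89 without the ribosomal protein genes. The first 2 intervals overlap. Taken by gene, the medians were 1.10 and, without the ribosomal protein genes, 1.083, so no clear trend with length was seen.

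Pairs of the same gene could lean opposite ways, which was seen in 12 of 998 protein-coding genes. Of the 998, 686 had 1 pair and could not lean both ways. Baz2b, a chromatin reader, had 4 against 9 in exon 25, a relative ratio of 0.267, and 24 against 5 in exon 12, a relative ratio of 2.88. Their intervals were 0.0600 to 0.955 and 1.08 to 9.66. Both were picked from the 9 pairs of the gene by these pileups, so the gap between the intervals is a description only. Chd4, the ATPase of the NuRD complex, had 35 against 8 with summits 48 bp apart and, elsewhere, 8 against 10 in an intron with summits 130 bp apart, relative ratios of 2.62 and 0.48. Arid1b had 10 against 13 and 28 against 4, and Hp1bp3 3 against 4 and 31 against 6. In Chd4, Arid1b and Hp1bp3 the interval of the pair that leaned to YTHDF2 included 1.

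Of the genes that mark stem and progenitor cells only Myb, a transcription factor required by haematopoietic progenitors, had pairs. Its 5 pairs ran from 4 against 3 in the 3′ UTR to 86 against 44 in exon 2, with 62 against 24 in the 5′ UTR, and the median relative ratio was 1.55. The lists of myeloid, erythroid, lymphoid, megakaryocyte and stromal markers had no pair, and a peak needs both expression and binding, so this does not identify the cells. Among other transcription factors Elf1 had 115 against 62 in an intron and Erg 53 against 41 in its 3′ UTR. Of the genes in the title of the series, Prmt6 had no pair. Mfsd2a, a lysophospholipid transporter, had 6 against 7 with summits 241 bp apart, and its interval of 0.143 to 1.79 does not place it on either side.

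Noncoding RNAs held few pairs. The 27 in long noncoding genes had a median of 0.66 (0.553 to 1.20). Malat1, an abundant nuclear RNA, had 191 against 137 at summits 14 bp apart, a relative ratio of 0.836, and 60 against 68 at 2 bp, a relative ratio of 0.529. Neat1, the scaffold of paraspeckles, had 13 against 19 and 14 against 18. The strongest intergenic lean to YTHDF2 had summits at 109505308 for IGF2BP2 and 109505305 for YTHDF2 on chromosome 6, with 9 against 33, a relative ratio of 0.164. An intergenic pair on chromosome 11, with its IGF2BP2 summit at 58245322, had 51 against 8.

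DRACH was more frequent where IGF2BP2 was favoured, in windows of spliced transcript with 50 bases on each side of the IGF2BP2 summit. It was present in 88.5% of 113 coding windows that leaned to IGF2BP2 (interval 81.1 to 93.7), in 80.3% of 726 that leaned to neither and in 72.2% of 90 that leaned to YTHDF2 (61.8 to 81.2). The intervals of the leaning sets overlap by a narrow margin, and no test was made. All coding windows together gave 80.5%. GGAC, 4 letters that many DRACH matches contain, did not follow this order, with 39.8%, 43.0% and 43.3%. CATH, read as CA, T and then A, C or T and described for IGF2BP binding, was in 40.7%, 29.6% and 41.1%. All motifs were searched on the strand of the transcript. Median GC was 52.48% in windows that leaned to IGF2BP2 and 55.45% in those that leaned to YTHDF2. Below 50% GC, DRACH was in 40 of 44 windows that leaned to IGF2BP2 and 15 of 23 that leaned to YTHDF2. From 50 to 60% it was in 53 of 60 and 32 of 43, and at 60% or more in 7 of 9 and 18 of 24. Around the YTHDF2 summits of coding pairs, DRACH was in 92.9%, 79.5% and 76.7% of windows, in the order of lean given above. In 51-base windows there, the shares were 66.4%, 54.3% and 56.7%, so the set leaning to YTHDF2 was not the lowest.

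YTHDC1, the nuclear reader of the series, had a peak at 1256 of the pairs, or 67.5%. The share was 65.4% (58.9 to 71.5) for pairs that leaned to IGF2BP2 and 70.8% (64.7 to 76.4) for those that leaned to YTHDF2, intervals that overlap. The median YTHDC1 pileup was 9 at the former and 14 at the latter.

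Which reader is favoured depends on what is taken as even. At the 133 pairs with summits on the same base the backgrounds of both lists had a constant ratio of 1.26, and the median pileup ratio was 1.32 times that. Centred on the background ratio, an alternative added after the values were seen, 26.3% of pairs leaned to IGF2BP2 and 4.35% to YTHDF2. The order of regions and lists stays as it is under such a shift, and the medians of ribosomal protein and intergenic pairs were then 0.722 and 0.733, still below 1, while those of introns, other exons, 3′ UTRs from any transcript and 5′ UTRs were above it.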

How the data were processed

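The members and gene lists were chosen with earlier results of these data known. Cells were crosslinked at 254 nm with 120 mJ per cm2 in 3 exposures, and the libraries had 20 cycles of PCR and fragments of 250 to 450 bp, per the labels' protocols. bcl2fastq 2.17, Trim Galore, HISAT2 and GRCm38 are named per the submitters' processing notes, and the peak caller is not given in the sources used here. The authors deposited for each peak a pileup signal at the summit, a fold (ratio) over background, −log10 p and q values and a score, per the file headers and the column layout. Peaks were called for each library separately. The depth is unknown, and no library total was used.

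Peaks were paired at an overlap of at least 1 bp with Python 3.11.15, pandas 2.3.3, numpy 2.4.6 and scipy 1.17.1, and the steps were tested on simulated data. Summits were assigned with GENCODE M21, exons before introns, protein-coding genes before others and UTRs of any transcript before coding sequence. Peaks carry no strand, which leaves genes that overlap on either strand uncertain, and several genes ranked equally at 1.72% of IGF2BP2 and 1.88% of YTHDF2 summits of pairs. The background is (pileup + 1) divided by fold, minus 1, assuming a pseudocount of 1. The interval of a relative ratio is an exact (Clopper-Pearson) 95% interval of the IGF2BP2 share of the summed pileup, read as counts of fragments, divided by the median ratio. PCR copies cannot be told from separate molecules in a pileup, so these intervals cover counting error only. Named were the 10 protein-coding genes leaning most to each reader by the interval bound nearest 1, 5 even pairs, 2 to 4 examples per list by summed pileup, up to 5 genes leaning both ways, 3 other loci per direction, the genes of the title and the 3 genes with most pairs. Genes outside this rule, such as Pcnt, Cep128, Eef1a1, Kif5b, Pigk, Aars, Pgd, Malat1 and Neat1, were chosen after their values were seen. The sequence window of 1 further pair that met the same conditions is not reported here. Alternatives changed the overlap, the summit distance, the cut-offs, the measure, the chromosomes, the limits of the lean, the region order and the sequence window.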

Additional observations from a re-analysis of the deposited data

How the results depend on the processing

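No paired analysis was possible because each reader has 1 library. Requiring a pileup of at least 10 in both lists left 507 pairs with a median ratio of 1.54. Of these 8.68% leaned to IGF2BP2 and 11.6% to YTHDF2, and other exons had a median of 0.702. Gene lists below 1 then numbered 2 in place of 9. Lists left with fewer than 5 pairs were not counted, so these counts need not cover the same lists. The authors' fold in place of the pileup gave a median ratio of 1.496 and 9.83% leaning to YTHDF2. Limits of 1.5 and 3 times gave 28.4% and 3.49% to IGF2BP2 and 27.9% and 2.53% to YTHDF2. With coding sequence before UTRs the 3′ UTR median was 0.60. In windows of 51 bases around IGF2BP2 summits DRACH was in 69.9% of the coding windows leaning to IGF2BP2 and 48.9% of those leaning to YTHDF2. Around YTHDF2 summits these shares were 66.4% and 56.7%. After the values were seen, pairs with a background of 1 or more were left out, which gave a median ratio of 1.75, and the ratio was centred on the background ratio of 1.26. The latter gave 26.3% and 4.35% leaning, 2 lists below 1, and medians of 1.44 in coding sequence, 1.27 in 3′ UTRs, 1.19 in introns and 0.733 in intergenic pairs, and it turned 5′ UTRs to 1.06. Of the single lists, chaperones moved from 0.942 to 1.52 at a pileup of at least 10. Centred on the background ratio, RNA helicases (1.02), hnRNP genes (1.24), cytoskeleton (1.27), translation factors (1.32), chromatin regulators and nucleolar proteins (both 1.59) and splicing factors (1.62) rose beyond their intervals. The share of pairs with a YTHDC1 peak was 92.1% at a pileup of at least 10. By fold, the Hsp90aa1 pair with summits 315 bp apart had a relative ratio of 3.35 in place of 6.21. Of 1067 values for 123 named pairs, 6 left the pair's own counting interval and none changed side among those whose interval excluded 1. Several alternatives only left out other pairs and kept the median ratio at 1.667. Under these a named pair kept its value by construction, so these counts are no measure of robustness. The median of ribosomal protein pairs stayed between 0.533 and 0.722, and that of DNA replication and mitosis between 1.38 and 1.96. Small pileups limit single pairs, as 404 had a YTHDF2 pileup of 3 or less.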
